A study of Mus musculus with 12 samples.

Results

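Mt1, Mt2 and Mt3 are metallothionein genes, the 3 members of that family listed among 15191 genes in a comparison of mouse frontal cortex with and without the RNA editing enzyme ADAR2, which is encoded by Adarb1. They were chosen by their deposited values: Mt1 has one of the smallest p-values in the gene table, and Mt2 and Mt3 were taken with it as its family. Mt4, the remaining member of the cluster, is not in the gene table, so no level or difference of it is given. RNA came from 12 libraries of male C57BL/6 mice, 6 from Adar2-/- Gria2R/R cortices and 6 from Adar2+/+ Gria2R/R litter mate cortices. Animals of both genotypes therefore carried the Gria2R allele, in which the gene itself encodes arginine at the site of this AMPA receptor subunit that ADAR2 would otherwise edit. The knockout is labelled without a Cre driver or a named cell type, and frontal cortex holds neurons, glia and vessels together. The gene table heads its groups only condition A and condition B, so a difference in gene level is A over B and names no genotype, while the exon and editing tables name the genotypes. The values are means over libraries and the authors' tests, so no single library can be shown and no standard deviation can be given. The gene table also lists a mean for A and one for B, which were left unused here because neither heading states a genotype, so levels are means over both conditions.

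Metallothioneins are short, cysteine-rich proteins that bind zinc and copper in clusters of thiolate bonds, buffer these metals in the cell and take up oxidants. Mt1 and Mt2 are induced by zinc, through the metal-sensing factor MTF-1, and by glucocorticoids and inflammatory cytokines, and in brain they are found mainly in astrocytes. Mt3, also called growth inhibitory factor, is largely a brain form, is present in neurons as well as astrocytes, and responds little to these inducers. Mt4 is known from stratified epithelia. The coding regions annotated in GENCODE M21 gave proteins of 61 residues for Mt1 and Mt2 and 68 residues for Mt3, each with 20 cysteines and none with an aromatic residue or histidine. Mt1 and Mt2 were identical at 46 of 61 aligned residues (75.4%). The identity to Mt3 was 72.1% for Mt1 and 63.9% for Mt2, and Mt3 carried 7 residues that had no counterpart in either.

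The promoter windows of the 3 genes are shown because the metal response element, through which MTF-1 acts on metallothionein genes, was searched in them. Its number differed between the windows. Each window runs from 250 bases before to 50 bases after an annotated start, from RefSeq on GRCm38.p6, on the plus strand, at chr8:94178839-94179138 for Mt1, chr8:94172368-94172667 for Mt2 and chr8:94152357-94152656 for Mt3. Capitals mark the core of the metal response element, TGCACNC or TGCGCNC on either strand.
Mt1: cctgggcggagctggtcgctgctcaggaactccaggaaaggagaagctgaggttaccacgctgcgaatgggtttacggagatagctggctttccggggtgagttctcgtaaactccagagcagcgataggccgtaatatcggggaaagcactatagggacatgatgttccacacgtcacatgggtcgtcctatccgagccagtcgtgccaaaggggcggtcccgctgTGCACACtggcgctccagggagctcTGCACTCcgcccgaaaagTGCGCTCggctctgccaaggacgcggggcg
Mt2: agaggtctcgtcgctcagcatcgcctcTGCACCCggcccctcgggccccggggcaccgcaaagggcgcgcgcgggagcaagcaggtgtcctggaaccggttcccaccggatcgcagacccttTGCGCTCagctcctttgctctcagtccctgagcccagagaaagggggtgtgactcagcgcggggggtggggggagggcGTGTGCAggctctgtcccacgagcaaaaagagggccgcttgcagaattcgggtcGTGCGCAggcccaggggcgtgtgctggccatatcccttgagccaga
Mt3: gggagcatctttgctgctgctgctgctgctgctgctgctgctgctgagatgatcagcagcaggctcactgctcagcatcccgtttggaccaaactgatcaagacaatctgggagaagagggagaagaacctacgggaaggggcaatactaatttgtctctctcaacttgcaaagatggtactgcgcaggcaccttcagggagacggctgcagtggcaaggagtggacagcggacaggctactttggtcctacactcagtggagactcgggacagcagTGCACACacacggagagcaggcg

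The core was found at 3 places in the Mt1 window, 4 in the Mt2 window and 1 in the Mt3 window, and at 1 place in the window of Mt4. Of 32851 RefSeq promoter windows of 300 bases, 25.7% held at least 1 core, 1.97% held 3 or more and 0.517% held 4 or more. Counted in bases from the annotated start, with negative numbers before it, the cores in the Mt1 window began at -23, 2 and 20. Those in the Mt2 window began at -223, -128, -50 and 4, and the single core in that of Mt3 began at 27. These numbers and positions depend on the annotated start that was taken, and other starts were not searched. The core of the antioxidant response element, TGACNNNGC, was found at 1 place in Mt2, beginning at -79, and 12.4% of all windows held it. The glucocorticoid receptor hexamer TGTTCT, held by 19.0% of windows, was in none of the 4 windows. TATAAA, held by 13.6%, was in that of Mt4 alone. Each window covers 1 annotated start, and bases past its ends were not searched. GENCODE M21 lists 3 transcripts of Mt1, 2 of Mt2 and 3 of Mt3. Absence of a motif from a window is therefore not absence from the promoter of the gene. The windows of Mt1, Mt2 and Mt3 were 60.7%, 67.7% and 56.0% G and C, and the shares over all windows were not adjusted for base composition.

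**Figure D1:**
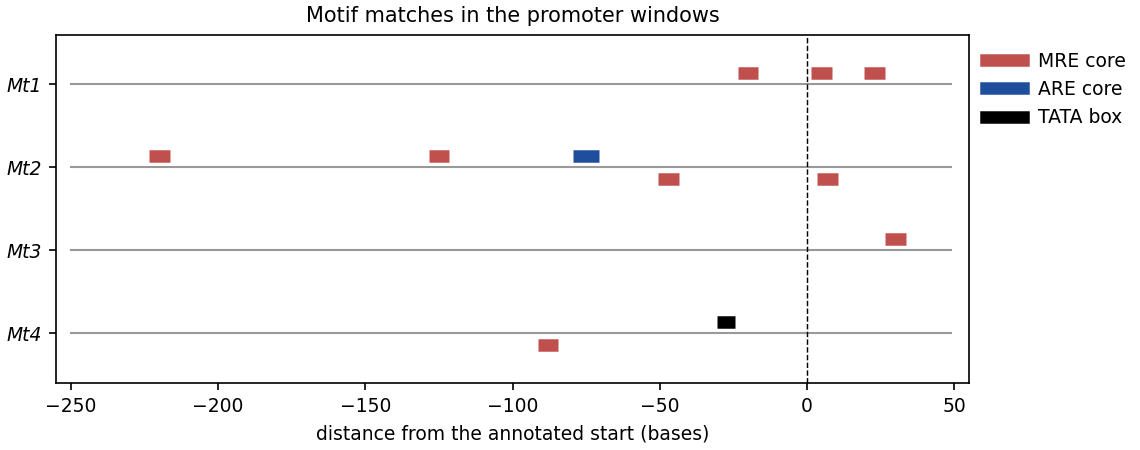
Motif matches in the promoter windows of Mt1, Mt2, Mt3 and Mt4, by distance in bases from the annotated start (dashed line), with matches on the plus strand above each grey line and on the minus strand below it. The Mt1 window holds 3 metal response element (MRE) cores, that of Mt2 holds 4 beside 1 antioxidant response element (ARE) core, and those of Mt3 and Mt4 hold 1 MRE core each.

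All 3 genes were listed with the higher level in condition A, and none passed an adjusted p under 0.05 in the authors' deposited table. That call was met by 3 of the 15191 listed genes, or 0.0197%. Mt1, an inducible form, was 1.26-fold higher in A at a mean normalized read count of 1456 over both conditions. For Mt1, the authors' deposited table gave p = 0.000207, adjusted to 0.457, at a log2 difference of 0.33. Mt1 ranked 8 in order of p among the listed genes, whose lowest mean count was 15.0.

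Mt2, the other inducible form, had a nearly equal difference at a lower level. Mt2 was 1.27-fold higher in A at a mean count of 303, and for its log2 difference of 0.34 the authors' deposited table gave p = 0.0343, adjusted to 1. Mt3, the brain form, had the highest level and the smallest difference of the 3. Mt3 was 1.12-fold higher in A at a mean count of 2111.5, and for its log2 difference of 0.16 the authors' deposited table gave p = 0.172, adjusted to 1. Whether single libraries of the conditions overlap cannot be said from these values.

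An error can be given only through the p-values. If each deposited p is read as that of a normal test, the implied standard error of the log2 difference is 0.0891 for Mt1, 0.161 for Mt2 and 0.12 for Mt3. The implied 95% interval runs from 0.156 to 0.505 for Mt1, from 0.0251 to 0.655 for Mt2 and from -0.0711 to 0.398 for Mt3. The intervals overlap, and whether the 3 differences themselves differ was not tested. The p-values of the table lie high as a whole: in the authors' deposited table an unadjusted p under 0.05 was listed for 283 genes (1.86%), against 760 if p-values were uniform. Mt1 and Mt2 are 2 of the 128 genes (0.843%) that had such a p and the higher mean in condition A. Since Mt1 was selected on its p in this comparison, these shares describe the table and lend the genes no support.

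**Figure D2:**
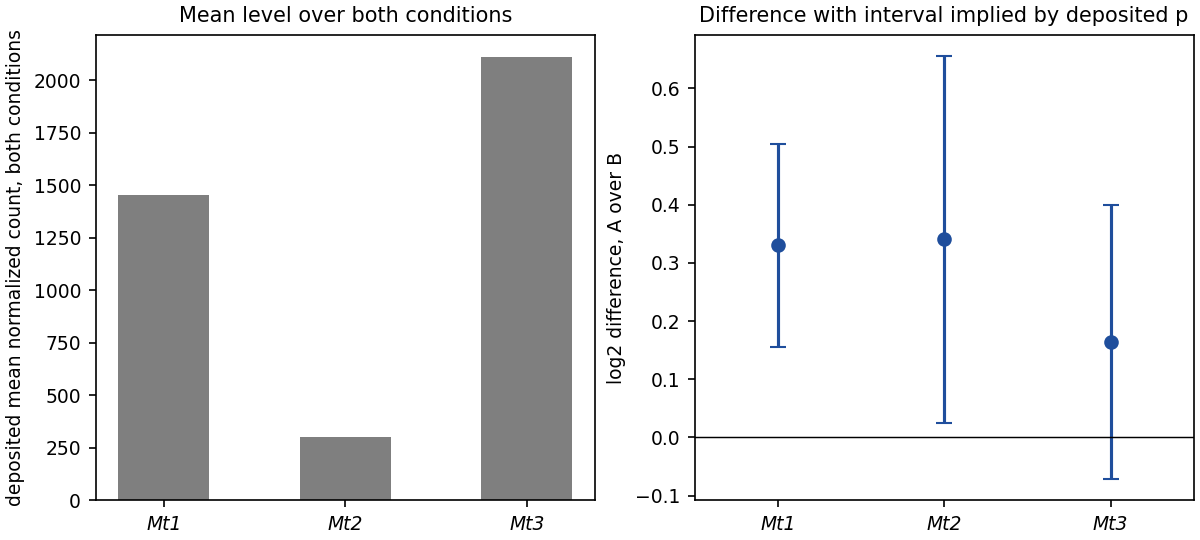
Left, deposited mean normalized count of Mt1, Mt2 and Mt3 over both conditions, with no error bars because values per library were not analysed here; it is highest for Mt3. Right, log2 difference of A over B, with bars for the 95% interval implied by the deposited p. The Mt3 interval includes 0, and those of Mt1 and Mt2 do not, which for Mt1 restates the p it was chosen by.

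The size of these differences is not rare in the table. A log2 difference at least as large as that of Mt1, in either direction, was found for 814 genes (5.36%), as large as that of Mt2 for 756 genes (4.98%) and as large as that of Mt3 for 2695 genes (17.7%). These shares pool genes of every listed mean count, from 15.0 upward, and none was taken among genes of a count like that of Mt1. The median log2 difference over all genes was 0.0063, with 52.9% of genes higher in condition A. Just inside Mt1 in order of p stood Slc17a8, Npy and Hddc3, with p = 1.88e-05, 7.08e-05 and 0.000157 in the authors' deposited table. Just outside stood BC061194, Pdyn and Myl1, with p = 0.000223, 0.000253 and 0.000261 in the authors' deposited table. The log2 differences were -1.08, 0.32 and 0.85 for those inside, and -0.55, 0.33 and 1.33 for those outside. Npy and Pdyn, which encode neuropeptides, thus had differences close in size to that of Mt1.

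**Figure D3:**
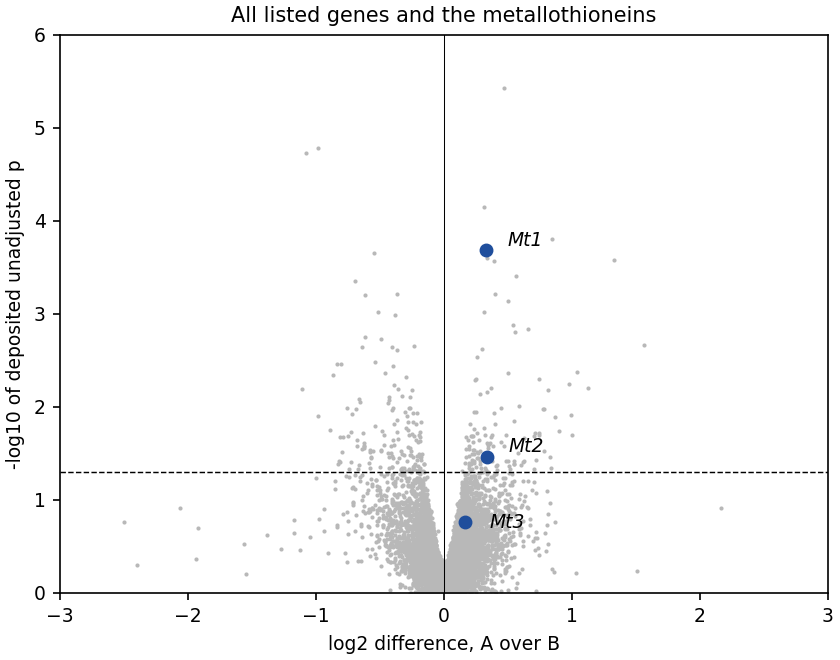
Log2 difference of A over B against -log10 of the deposited unadjusted p for all listed genes (grey), with Mt1, Mt2 and Mt3 in blue and a dashed line at the unadjusted threshold. Mt1 and Mt2 lie at nearly the same difference, 0.33 and 0.34, and far apart in p. 2 genes with smaller p lie above the axis and 9 genes outside its width.

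The genes most like Mt1 in mean count and difference had larger p-values, which the choice of Mt1 by its small p largely fixes. By distance in these 2 measures, each divided by its standard deviation over all listed genes and taken over this 1 comparison, they were Grik5, Zmat3, Smoc2, Wnk2 and Mtss1l. For Grik5, a kainate receptor subunit with a mean count of 1508 and a log2 difference of 0.32, the authors' deposited table gave p = 0.0903, which implies a standard error of 0.188 where that of Mt1 was 0.0891. For the other 4 the log2 differences were 0.31, 0.32, 0.35 and 0.36, with p = 0.103, 0.0316, 0.24 and 0.209 in the authors' deposited table. The adjusted p was 1 for all 5. Likeness in a mean and a single difference says nothing of how these genes vary from mouse to mouse.

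Mt3 had the highest level per length and Mt2 the lowest. Per kilobase of the first-numbered GENCODE M21 transcript (549 bases for Mt1, 511 for Mt2 and 536 for Mt3), the mean count over both conditions was 3939 for Mt3, 2652 for Mt1 and 592 for Mt2. How far neighbours in this order exceed the spread over libraries is unknown. Mt3 made up 54.6% of the summed mean count of the 3 genes, Mt1 37.6% and Mt2 7.82%. Per kilobase of all annotated exons, 94.6% of the 13229 genes with a matched length stood lower than Mt3, 89.5% lower than Mt1 and 74.3% lower than Mt2.

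Reads of Mt2 are the least certain to be its own. In GENCODE M21 the antisense gene Gm45774 covers 432 of 588 exon bases of Mt2 (73.5%), and it is not in the gene table. The submitters name the build mm9 and GENCODE M21 is on GRCm38, so this absence does not show that Gm45774 was unexpressed. The labels name a stranded kit, but whether counting used the strand is not given in the sources used here. Stretches of 36 bases of Mt1 and Mt3 transcripts had no exact match in a transcript of another gene, on either strand, and for Mt2 the matches (54.6%) were all in Gm45774.

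Exon bins were compared between genotypes in a separate table, which lists 10 bins of the 3 genes. A bin value describes the use of that stretch within its gene and not the level of the gene. In the authors' deposited table, 11 of 149137 tested bins (0.00738%) had an adjusted p under 0.05 and 1.67% an unadjusted one under 0.05. For the metallothioneins the counts were 0 of 10 under both rules, and every adjusted p was 1. Beside these shares over all bins, a count of 0 of 10 says nothing about the 3 genes.

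Mt1 had 4 listed bins. In the authors' deposited table, the log2 difference of Adar2-/- over control was 0.131 in E001, 0.0499 in E002, -0.00379 in E003 and -0.0341 in E005, with p = 0.662, 0.456, 0.985 and 0.518. The first of these rests on a mean count of 20.3, close to the lowest of the whole table, against 453, 591 and 1083 for the others. Mt2 had log2 differences of 0.0572 in E001, -0.0095 in E002 and -0.0265 in E003 in the authors' deposited table, with p = 0.667, 0.847 and 0.847. Mt3 had -0.0331 in E001, -0.0142 in E002 and 0.0404 in E003 in the authors' deposited table, with p = 0.592, 0.78 and 0.433. Of the 10 bins, 4 were higher and 6 lower in Adar2-/- cortex. Their median absolute log2 difference was 0.034, and over all tested bins it was 0.067.

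The dispersion deposited with each bin gives the spread that the authors' count model took between libraries. Its square root, a coefficient of variation, was 21.4% for the Mt1 bin E001 and 7.41% for E005. It lay between 9.25% and 11.2% for the Mt2 bins and between 7.27% and 7.7% for those of Mt3. Over the 10 bins the dispersion fell without exception as the mean count increased, so these values follow the depth of a bin.

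**Figure D4:**
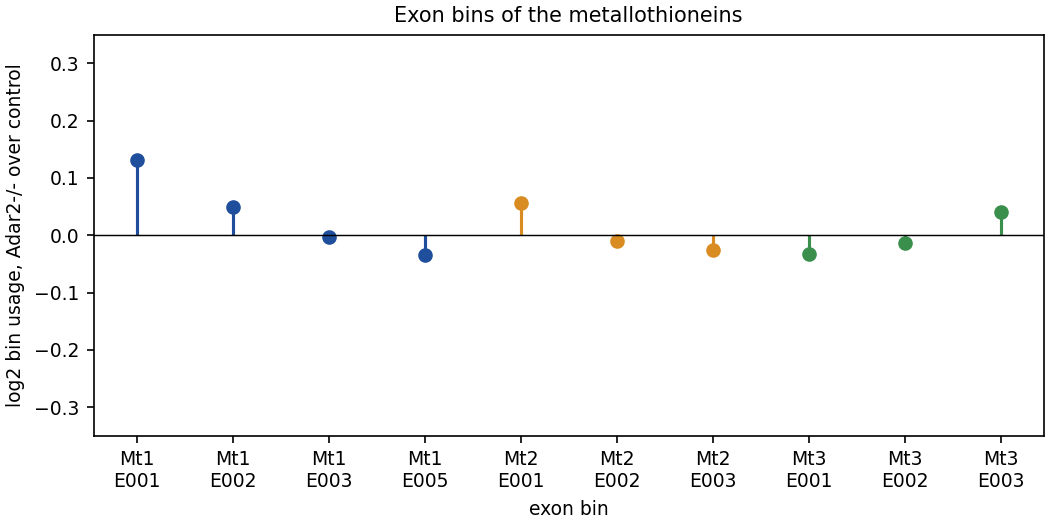
Log2 difference in bin usage, Adar2-/- over control, for each listed exon bin of Mt1 (blue), Mt2 (orange) and Mt3 (green). All 10 points lie between -0.0341 and 0.131.

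Of the 143 deposited editing sites, 0 lie in Mt1, Mt2, Mt3 or Mt4, and 9 lie on their chromosome, 8. With 143 sites beside 15191 listed genes, a count of 0 in so few genes says nothing about them. A gene without a deposited site is not shown to be unedited.

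The listed genes that move zinc had smaller differences than the metallothioneins, which the choice of Mt1 by its small p in part fixes. None of these zinc genes passed an unadjusted p under 0.05, which 1.86% of all genes did in the authors' deposited table. For lists of this length a count of 0 says nothing about their members. Slc30a1, the plasma membrane zinc exporter that MTF-1 induces together with Mt1, had a log2 difference of -0.01 at a mean count of 1554 and p = 0.895 in the authors' deposited table. Mtf1 itself was at 0.01 with a mean count of 751 and p = 0.911 in the authors' deposited table. Slc39a10, a zinc importer that MTF-1 represses, was at -0.06 with p = 0.648 in the authors' deposited table. Slc30a3, which loads zinc into synaptic vesicles, was at 0.03 with p = 0.72 in the authors' deposited table.

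Over the 8 listed zinc exporters the log2 differences ranged from -0.0709 to 0.0549, with a median of 0.0043, and 0 passed at an unadjusted p under 0.05. The smallest p among them in the authors' deposited table were those of Slc30a4 (0.519) and Slc30a5 (0.557). Over the 12 listed zinc importers the range was -0.115 to 0.131 and the median 0.041, again with 0 passing. Slc39a11 and Slc39a13 had the smallest p there, 0.201 and 0.249 in the authors' deposited table. Mt1 and Mt2 lay above the highest of these 20 zinc transporters, and Mt3 did as well. Since Mt1 was chosen by its p in this comparison, and Mt2 and Mt3 with it, this order lends them no support. Of 5 metal-response factors 4 were higher in A and 0 passed; Mtf2, a chromatin factor named for metal response, was at -0.14 with p = 0.0938, and Sp1 at 0.06 with p = 0.758, in the authors' deposited table.

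The copper and iron genes had medians near 0. None passed the adjusted threshold, which 0.0197% of all genes did, and 52.9% of all genes were higher in A. All 12 copper handling genes were listed, 11 of them higher in A, some by almost nothing, with a median of 0.036. At an unadjusted p under 0.05, which 1.86% of all genes had in the authors' deposited table, 0 of them passed. Atp7b, a copper-exporting ATPase, was at 0.31 with p = 0.111 and Atox1, a copper chaperone, at 0.07 with p = 0.296 in the authors' deposited table. Of 10 iron handling genes 7 were higher in B, with a median of -0.015. Slc40a1, the iron exporter ferroportin, was at -0.37 with a mean count of 387 and p = 0.0188, adjusted to 1, in the authors' deposited table. Ireb2, an iron-sensing RNA-binding protein, was at 0.19 with p = 0.286 in the authors' deposited table.

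Genes tied to other inducers of metallothioneins, regulators as well as targets, were also listed, and the part of these inducers was not tested. Of 17 listed genes of the glucocorticoid response, its receptor among them, 8 were higher and 9 lower in A, with a median of -0.015. Fkbp5, Sgk1 and Tsc22d3, strongly induced by the hormone, had log2 differences of 0.13, 0.11 and 0.05 with p = 0.401, 0.154 and 0.648 in the authors' deposited table. Cdkn1a, a cell cycle inhibitor, was at -0.23 with p = 0.0477 and Errfi1 at -0.14 with p = 0.148 in the authors' deposited table. Of 16 listed genes of oxidative stress and NRF2, 14 were higher in A, where 52.9% of all genes were, with a median of 0.044. At an unadjusted p under 0.05, which 1.86% of all genes had in the authors' deposited table, 0 of the 16 passed. Hmox1, a haem-degrading enzyme, was at 0.03 with p = 0.521, Gpx1 at 0.10 with p = 0.156 and Srxn1 at 0.09 with p = 0.194 in the authors' deposited table.

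Most astrocyte markers, and most of a list of STAT3 and reactive astrocyte genes, were listed higher in condition A. None passed the adjusted threshold. Gfap is in both lists, so their counts are not separate. The medians of both lists lay below Mt1 and Mt2, which the choice of Mt1 by its p in part fixes. Over all genes 52.9% were higher in A. Of 13 listed genes of STAT3 signalling and reactive astrocytes 10 were higher in A, with a median of 0.12. Serpina3n, a protease inhibitor of reactive astrocytes, was at 0.38 with a mean count of 378 and p = 0.0387, adjusted to 1, in the authors' deposited table. Socs3, a feedback inhibitor induced by STAT3, was at -0.30 with p = 0.0824 in the authors' deposited table. All 16 astrocyte markers were listed, 13 of them higher in A, with a median of 0.06 and a range of -0.0787 to 0.271. Gfap, the astrocyte filament protein, was at 0.27 with a mean count of 2365 and p = 0.205 in the authors' deposited table. Slc1a2, the main glutamate transporter of astrocytes, was at 0.17 with p = 0.111, Aldh1l1 at 0.11 with p = 0.182, and Aqp4, a water channel, at -0.06 with p = 0.65 in the authors' deposited table. The summed mean count of the 16 markers over both conditions was 274187, and the lowest was that of Sox9, an astrocyte transcription factor, at 233.7. Their part in the metallothionein differences was not tested, and in bulk tissue more cells of a type and more RNA per cell cannot be told apart.

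Markers of other cell types were mixed, and a lean to A was not particular to astrocytes. The excitatory neuron, microglia and choroid plexus lists leaned to A as well, with medians above the 0.06 of the astrocyte markers. The endothelial and oligodendrocyte lists leaned to B. Of 8 excitatory neuron genes 6 were higher in A, with a median of 0.11 and a summed mean count of 70827. Of 9 microglia genes 7 were, with a median of 0.085 and a sum of 13359. Of 11 endothelial and pericyte genes 3 were, with a median of -0.021 and a sum of 12400.2. Of 7 oligodendrocyte genes 3 were, with a median of -0.0085 and a sum of 23392. Of 5 listed choroid plexus and ependyma genes 4 were, with a median of 0.11 and a sum of 382, and Folr1 and Otx2 are not in the table. None of these 40 markers had an unadjusted p under 0.05, and with 1.86% of all genes under it that count says nothing about the markers. The smallest in each list were 0.0661 for Neurod6 (log2 difference -0.22), 0.191 for Kcnj8 (-0.20) and 0.539 for Slco1a4 (0.05), and 0.109 for C1qa (0.12) and 0.115 for Aif1 (0.28) in the authors' deposited table. They were 0.667 for Mbp (-0.09) and 0.749 for Mog (-0.11), and 0.395 for Ttr (0.15) and 0.564 for Kl (0.11), in the authors' deposited table.

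**Figure D5:**
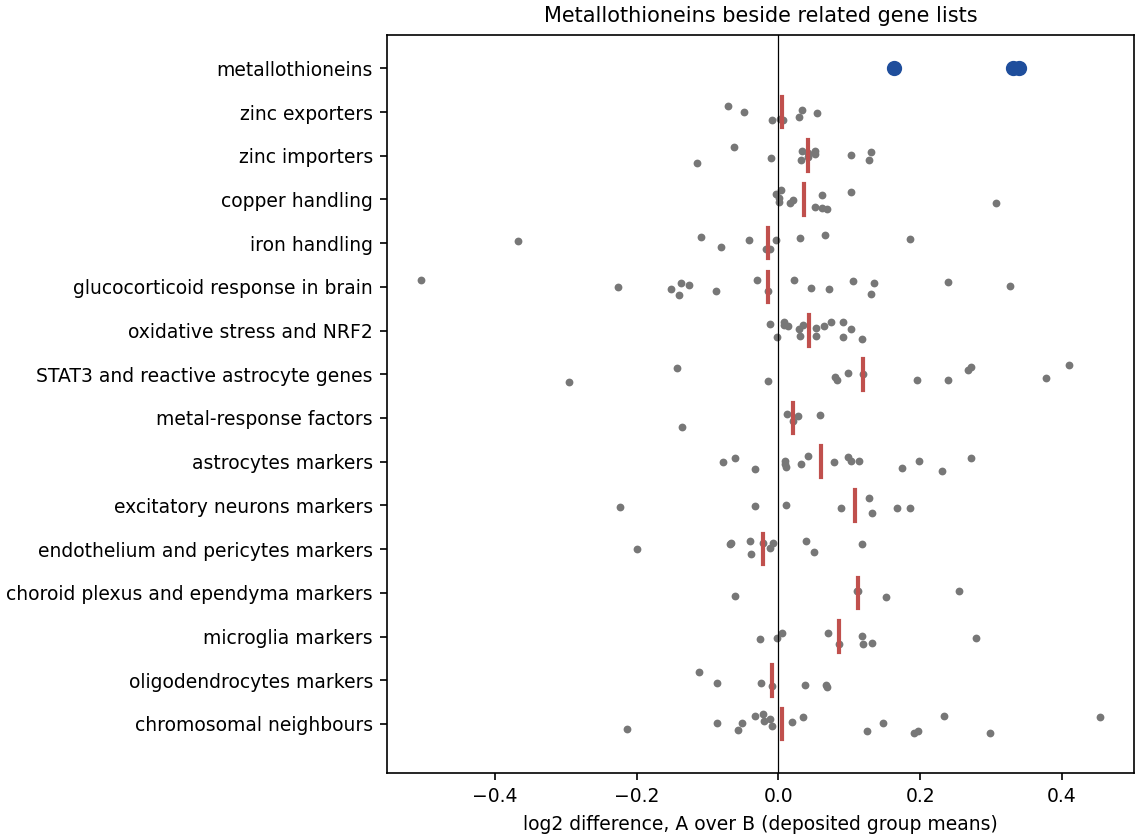
Deposited log2 difference, turned to A over B, for Mt1, Mt2 and Mt3 (blue, top row) and for the members of related gene lists (grey points, each list's median as a red line). Mt1 and Mt2 lie at 0.33 and 0.34, above every zinc transporter, while single members of the STAT3, copper and chromosomal neighbour lists reach 0.41, 0.31 and 0.45. The choice of Mt1 by its p in this comparison in part fixes its place above the zinc transporters.

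Genes beside the cluster on the chromosome were listed in both directions. The 18 nearest listed genes in RefSeq order were 8 before and 10 after Mt1 once Mt2 and Mt3 are set aside. They split into 9 higher in A and 9 higher in B, with a median of 0.0053 and 0 at an unadjusted p under 0.05. Over all genes 52.9% were higher in A and 1.86% had such a p in the authors' deposited table, so these counts say nothing about the neighbours. Gnao1, which encodes a G protein subunit, and Lpcat2, a phospholipid enzyme, had the smallest p there, 0.166 and 0.168 in the authors' deposited table, at log2 differences of 0.20 and 0.15. The nearest listed neighbours, Bbs2 before the cluster and Nup93 after it, were at -0.02 with p = 0.963 and at 0.13 with p = 0.346 in the authors' deposited table. The targeted gene Adarb1 had a log2 difference of -2.21, for which the authors' deposited table gives an adjusted p of 3.06e-126, and its level was not used to name the conditions.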

How the data were processed

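RNA was extracted with Trizol and made into libraries with a stranded total RNA kit after ribosomal RNA removal, per the labels. TopHat2 2.0.6, HTSeq, DESeq and the build mm9 are named in the submitters' processing notes, without roles. The gene table holds the authors' mean normalized read counts (a signal), the deposited ratio of B over A, its log2 value, p-values and adjusted p-values. The exon table holds the authors' mean counts, log2 ratios, p-values and a deposited dispersion score for each bin. The editing table holds the deposited percent of edited reads per genotype. Depth per library is unknown. The gene table's 2 further columns, a mean for A and a mean for B, were left unused because neither header gives a genotype. The lowest listed mean was 15.0 per gene and 20.0 per bin. Differences as A over B and as Adar2-/- over control turn round the deposited ratios.

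The members and lists were chosen with earlier results of these data known. Calls across all genes or bins used the authors' adjusted p under 0.05, and no test was added. Named genes were the metallothioneins, list members with p under 0.05, the 2 smallest p of each list, a fixed set of marker genes, the 3 genes on each side of Mt1 in order of p, and the 5 most like it. A gene that this rule names is not reported here. The neighbours Bbs2 and Nup93 were named after their values were seen. The replicates are 6 cortices per genotype, and nothing states that each library is one mouse. Proteins and transcript lengths came from GENCODE M21 (GRCm38), since no protein table was at hand. Alternatives were other adjustments, thresholds, count minimums (100 for genes, 50 for bins), and centring. The adjustment functions were tested on simulated data. Python 3.11.15, pandas 2.3.3, SciPy 1.17.1 and Biopython 1.88 were used.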

Additional observations from a re-analysis of the deposited data

How the results depend on the processing

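No metallothionein gene passed when p-values were adjusted over the listed genes alone, by Bonferroni, at an adjusted p under 0.1, or with a mean count of at least 100. The adjusted p of Mt1 lay between 0.343 and 1 under these settings. None of the 10 bins passed under the same kinds of setting, with a mean count of at least 50, or by a Simes p per gene. The log2 differences kept their direction after subtracting the median of all genes, at 0.32 for Mt1, 0.33 for Mt2 and 0.16 for Mt3. Recomputing them with pseudocounts was not run, since the means per condition were not used. Over all genes, 5 passed at an adjusted p under 0.1 in place of 3. No paired analysis was possible because the files used here give means over libraries only. For the same reason, leaving out each library could not be run, so a mean that rests on a single mouse would not show.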
